A study of Ovis aries with 36 samples.

Results

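Of 9568 loci that carried an Ensembl gene identifier and averaged at least 5 counts per sample, 15 had their highest value of all 9 muscles in the Semitendinosus (ST) of each of 4 lambs and were kept after a step that removed loci opposed to TPM3 (0.157%). Values were CPM, the counts of a locus scaled to a common total over the Ensembl loci of each sample. The ranking alone kept 18 loci, and 3 were then left out because their log2(CPM + 1), centred within animal, had a Pearson correlation of -0.65 or lower with TPM3 (ENSOARG00000001845), the slow fibre tropomyosin, over the 36 samples. The 15 loci were thus selected on their ST values and on the TPM3 correlation, and both are given here as a description with no test. Without the TPM3 step, the same ranking kept 0.188% of the loci for ST, compared with 49 loci for Semimembranosus (SM), 25 for Supraspinatus (SS), 20 for Psoas major (PM), 9 for Longissimus lumborum (LL), 4 for Gluteus medius (GM), 4 for Rectus femoris (RF) and 3 for Adductor (AD). No locus was highest in cranial Gluteobiceps (GB) in all 4 animals.

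RNA was sequenced from these 9 muscles in each of 4 unrelated cross-bred Poll Dorset lambs, 14 months old and weighing 67 to 72 kg at slaughter, that had grazed soy with a sorghum supplement. No treatment was applied, so that muscles of the same animal are the groups compared and each group has 4 biological replicates. Each sample is a piece from the superficial middle of the belly of a muscle, and in such bulk tissue fewer cells of a type and less RNA per cell cannot be told apart. ST is a superficial hamstring muscle of the hind limb with mostly fast glycolytic fibres, which contract rapidly and draw on glycogen. SM is another hamstring, RF is part of the quadriceps on the front of the thigh, and GB, GM and AD are also muscles of the hip and thigh. LL and PM lie along the lumbar spine, and SS is a shoulder muscle rich in slow oxidative fibres.

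Depth was 3699148 to 6427422 counts per sample, of which 19.1 to 29.9% fell in Ensembl loci. This share was 22.6 to 25.3% in the ST samples, and its mean of 23.3% was lower than in every other muscle except SM, which had 22.2%. TPM3 was lowest in ST, at 53.2 ± 16.8 CPM (SD, n = 4), and highest in PM, at 866 ± 152 CPM. Of 18 slow fibre genes listed, 7 could be paired with a locus (MYL3, TNNT1, TNNC1, ATP2A2, CASQ2, MYOZ2 and MYOM3). The names come from tables of genes already found to differ between muscles in these samples, so no count of calls among them is given. None of the 10 skeletal muscle markers listed, and none of the markers listed for fat, tendon, connective tissue, vessels, nerve, blood or satellite cells, could be paired with a locus. The tissue label was therefore not checked against these markers, and the part of such cells in the results was not tested.

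The files name loci by identifier and position only, and a gene symbol could be set beside 1 of the 15 loci. The loci are therefore numbered by the ratio of their mean CPM in ST to that in the next highest muscle, from locus 1 with 2.28 to locus 15 with 1.19, with a median of 1.29. Coordinates are those of the Oar_v3.1 assembly. The ratio was above 1.5 for 5 loci. CPM takes no account of transcript length, so levels are compared between muscles and not between loci.

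Locus 1 (ENSOARG00000019977, chr1:183898068-184335029) is one of a pair of loci at the position of STXBP5L, whose product binds syntaxin and takes part in the control of vesicle secretion. Its CPM in ST was 23.5, 33.2, 23.1 and 15.2 in animals 1 to 4. In the 32 samples of the other muscles it ranged from 1.97 to 17.1 with a median of 5.99, and 1 of these samples, the RF of animal 1, exceeded the lowest ST sample. The next highest mean was 10.4 ± 6.19 CPM in RF and the lowest was 3.696 ± 1.72 CPM in SS. Locus 1 was thinly covered, with 22 to 39 counts in the ST samples. The other locus of the pair, at the same coordinates, was highest in SS by mean, with 12.3 ± 6.39 CPM compared with 7.19 ± 3.47 in ST, so the name is not assigned to either here, and how reads were split between both is uncertain.

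Locus 2 (chr2:118144207-118150743) had 50.6, 63.8, 42.4 and 40.0 CPM in ST. The other 32 samples ranged from 2.80 to 38.4 CPM with a median of 15.7. All 4 ST samples thus lay above every sample of the other muscles, which was the case for only 2 of the 15 loci. Its next highest mean was in GB (23.7 ± 11 CPM) and its lowest in SS (9.96 ± 1.89 CPM).

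Locus 3 (ENSOARG00000002495, chr20:49693089-49762526) had the widest range among muscles. Its CPM in ST was 92.2, 39.1, 278 and 62.1 in animals 1 to 4, from 102, 46, 432 and 90 counts. RF followed in the first 3 animals with 77.8, 32.5 and 88.5 CPM, and SS in animal 4 with 44.0 CPM. At the other end, SM had 5.52, 2.03, 4.75 and 3.98 CPM and LL had 3.91, 7.22, 2.93 and 3.85 CPM. All samples of ST, RF and SS were above all samples of SM and LL. The mean in ST was 28.9 times that in SM, the hamstring beside it. The ST samples of locus 3 overlapped with other muscles across animals, as 6 of the 32 other samples exceeded the ST of animal 2. Its ratio of ST to RF was 1.97, and 1.28 without animal 3.

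An unannotated locus 80 bases beyond locus 3 (chr20:49762606-49765006), which lies at the position of a transcript assigned to MYLK4, a myosin light chain kinase, had the same leading muscles. It had 20.8, 11.9, 50.8 and 22.8 CPM in ST and was highest in ST in 4 of 4 animals. Its means were 26.6 ± 16.8 CPM in ST, 11.99 ± 6.66 in SS, 11.5 ± 6.51 in RF, 0.962 ± 1.13 in LL and 0.442 ± 0.541 in SM. In SM, animals 2 and 3 had a count of 0, which allows up to 2.03 and 2.85 CPM (3 counts). Of 20 loci with a mean of at least 5 counts within 30 kb of any of the 15 loci, this was the only one that was highest in ST in every animal. Whether reads of one transcript were divided between both loci was not tested.

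**Figure D1:**
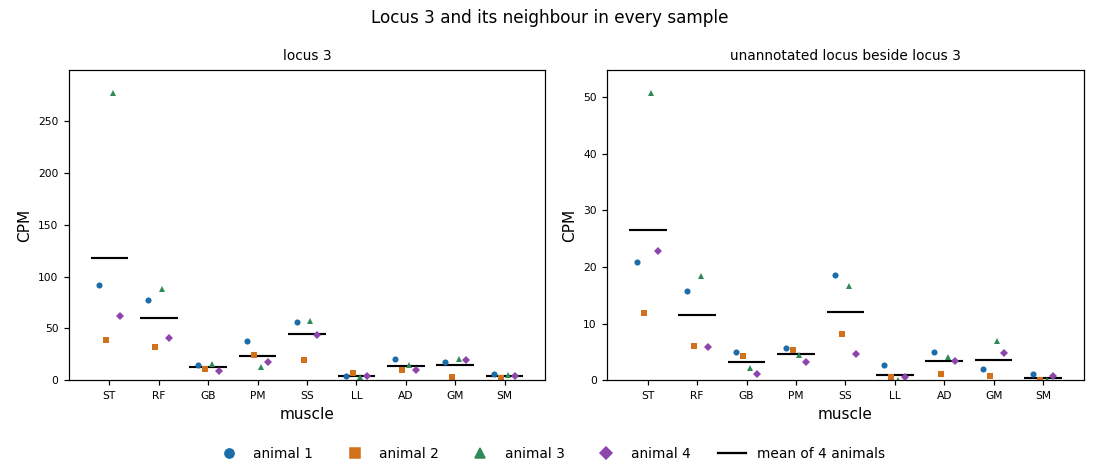
CPM (y axis, from 0) of locus 3 (left) and of the unannotated locus 80 bases beyond it (right) by muscle (x axis), with a symbol for each of the 4 animals and a bar for their mean. In both, ST, RF and SS held the 3 highest means and SM the lowest, and animal 3 had the highest ST value.

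Locus 4 (chr6:14934427-14955991) had 17.2, 23.0, 16.7 and 24.2 CPM in ST. The other samples ranged from 0 to 17.3 CPM with a median of 5.996. Only the RF of animal 4 exceeded the lowest ST sample. The next highest means were 11.6 ± 4.77 CPM in RF and 10.01 ± 0.503 in PM. The GM of animal 1 had a count of 0, which allows up to 3.03 CPM, and the ST samples had 19 to 35 counts.

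Locus 5 (chr14:51709732-51711208), the shortest with a span of 1.48 kb, had 40.7, 18.7, 19.3 and 40.7 CPM in ST. These fell into a high pair (animals 1 and 4) and a low pair (animals 2 and 3). GB had 28.4, 11.8, 11.7 and 17.5 CPM and was the next highest by mean, and 2 of the 32 other samples exceeded the lowest ST sample.

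Locus 7 (chr1:97163156-97179845) was the most even of the 15 loci among animals. It had 155, 194, 175 and 160 CPM in ST and 117, 144, 127 and 123 CPM in PM, which was the next highest muscle in each of the 4 animals. No sample of another muscle reached the lowest ST sample. The ratio of ST to PM within animals was 1.296 to 1.383, a narrow range, and the mean in ST was 1.98 times that in GM, the lowest muscle.

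Locus 9 (chr20:24871203-24885052) had 44.3, 75.7, 44.3 and 53.9 CPM in ST and 32.8, 63.9, 34.1 and 40.4 CPM in RF. RF thus followed the same order of animals as ST, with animal 2 highest and animal 4 next. Locus 10 (chr14:34857092-34957109) had 156, 240, 181 and 168 CPM in ST and 137, 155, 152 and 157 CPM in RF, its next highest muscle by mean. Its ST value in animal 2 stood above the other 3, and AD of animal 4, with 160 CPM, exceeded the ST of animal 1.

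The next muscle by mean was GB in 3 further loci. Locus 6 (chr17:55345462-55392419) had 101 ± 43.7 CPM in ST and 70.2 ± 19.5 in GB. Locus 8 (chr11:39641369-39665204) had 44.9 ± 4.04 and 34.7 ± 3.20 CPM in the same muscles, and locus 15 (chr5:93687757-93793296) had 272 ± 73.8 and 228 ± 50.9. In locus 6 and locus 15, the ST and GB samples overlapped across animals, and locus 8 did not overlap between ST and GB.

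PM followed ST in locus 11 (chr1:237191642-237232924), with 179 ± 19.2 CPM in ST and 146 ± 20.4 in PM, and in locus 14 (chr1:244754098-245052901), with 121 ± 9.59 and 101 ± 11.5. RF followed in locus 12 (chr22:43114443-43263424), with 56.2 ± 14.5 CPM in ST and 46.0 ± 13.5 in RF. SS followed in locus 13 (chr1:117800762-117952205), with 66.4 ± 9.66 CPM in ST and 54.5 ± 7.88 in SS. For locus 13, 15 of the 32 other samples exceeded the lowest ST sample, that of animal 3, the most of any of the 15 loci. Its other 3 ST samples, with 74.1, 74.0 and 63.52 CPM, lay above all 32, the highest of which had 63.49 CPM.

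**Figure D2:**
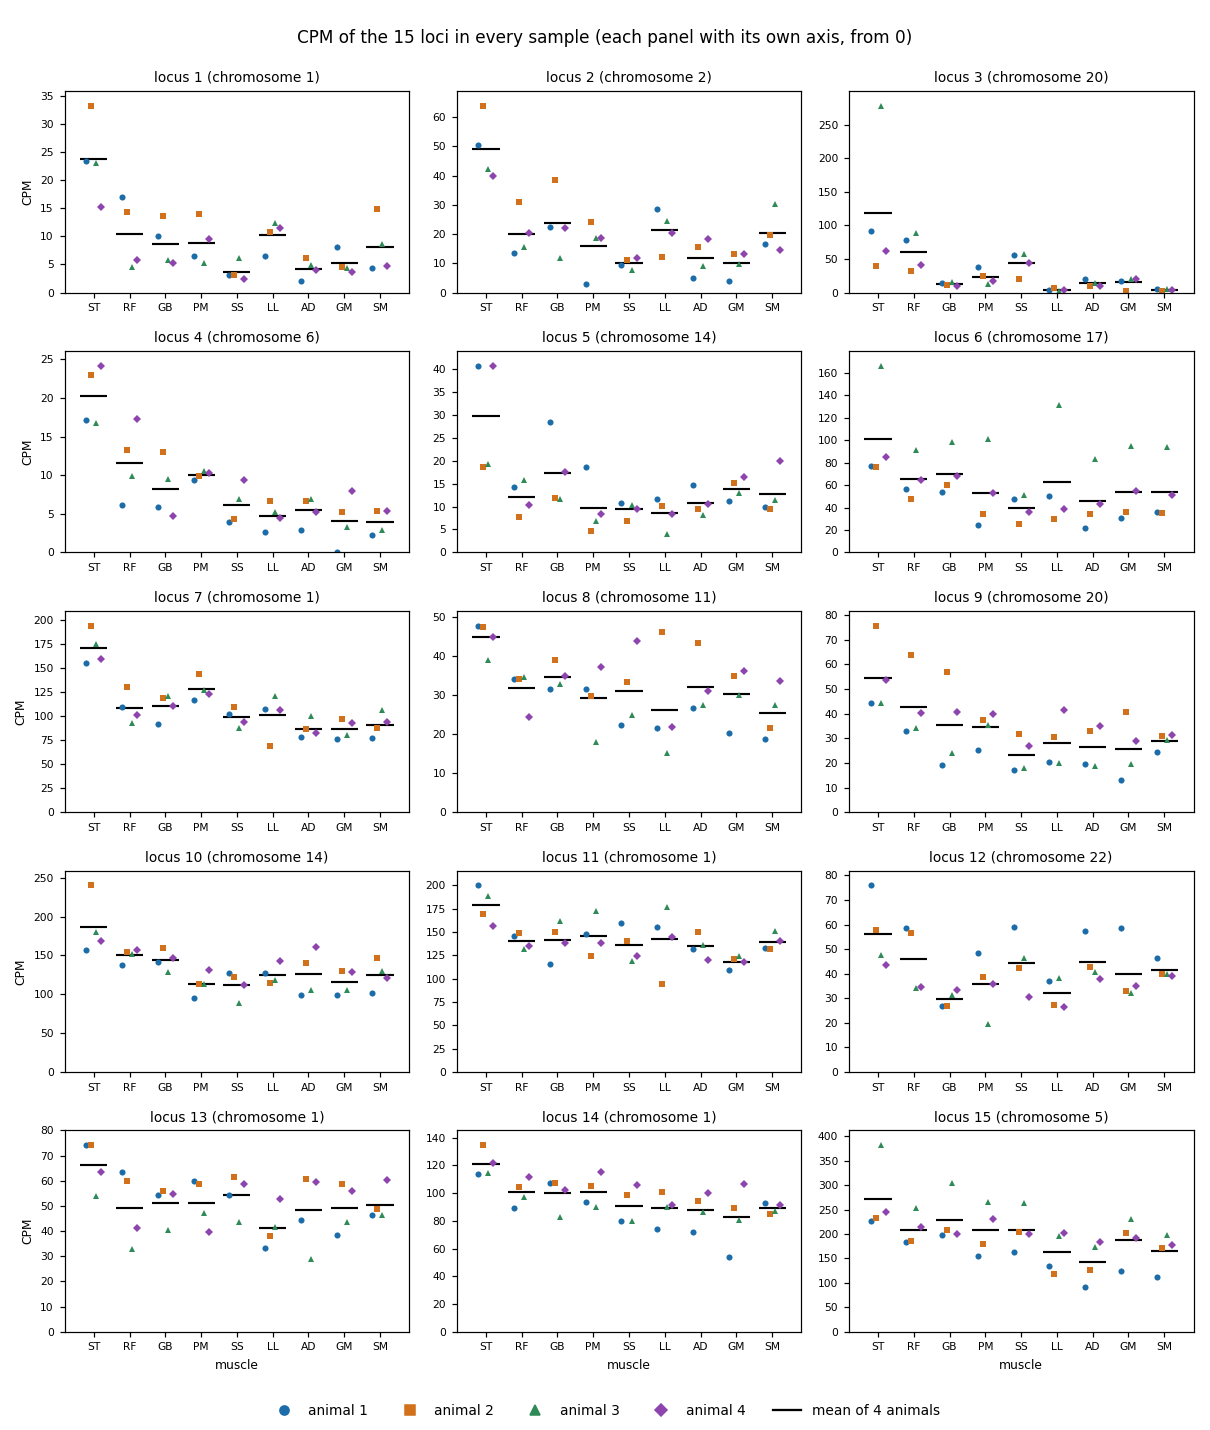
CPM (y axis, own scale in each panel, from 0) of the 15 loci in all 36 samples by muscle (x axis), with a symbol for each of the 4 animals and a bar for their mean. ST has the highest mean in every panel by selection. Only in loci 2 and 7 do all ST samples lie above every other sample, and in locus 13 the ST sample of animal 3 lies among those of the other muscles.

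The margin of ST over the next highest muscle of the same animal was small for the depth available. An exact Poisson 95% interval was computed for each count, which covers counting error only. The intervals of ST and of the next highest muscle were apart in 8 of the 60 pairs of locus and animal, in no locus for all 4 animals, and in none of the animals for 8 loci. The largest margin was 3.14, for locus 3 in animal 3, where ST had 432 counts and RF had 135. Just inside the rule, locus 12 exceeded RF in animal 2 by a factor of 1.02 (57.9 compared with 56.7 CPM), and locus 8 exceeded SS in animal 4 by 1.02 (44.9 compared with 44.0 CPM). Just outside it, a locus at chr24:34278012-34281866 was highest in ST in 3 animals and reached 0.993 of the next muscle in animal 4, and one at chr12:78941471-78965717 reached 0.992 in animal 2. Among loci that passed the TPM3 step, 93 were highest in ST in 3 of the 4 animals.

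**Figure D3:**
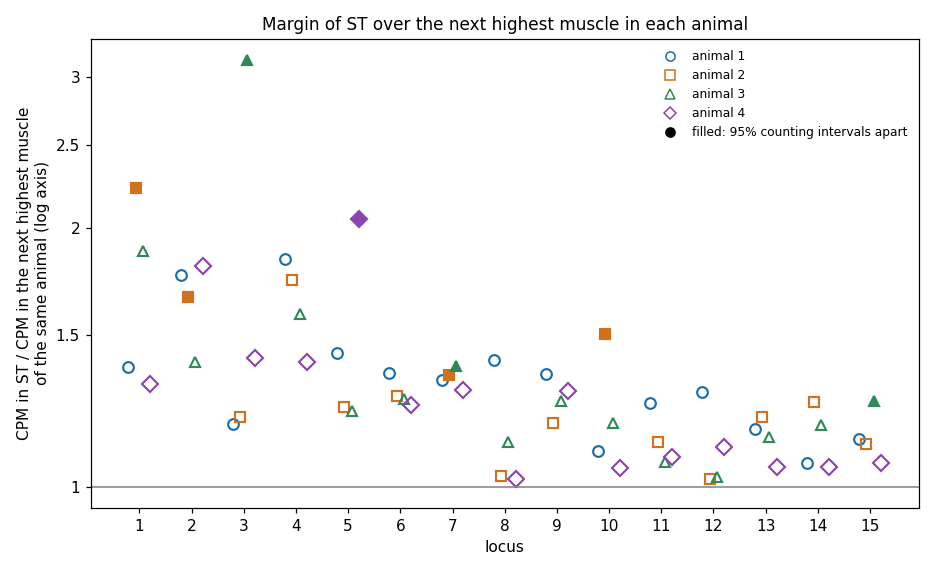
Ratio of CPM in ST to CPM in the next highest muscle of the same animal (y axis, log scale) for the 15 loci (x axis), with a symbol for each animal. The 8 filled symbols mark pairs whose 95% counting intervals are apart, and the grey line marks a ratio of 1. Loci 8 and 12 come down to ratios of 1.02, and locus 3 in animal 3 lies highest at 3.14.

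On the TPM3 side, the 15 correlations ranged from -0.65 to -0.17. Nearest to the limit inside it were locus 10 (-0.645) and locus 1 (-0.608). Just outside were chr1:91193360-91219364 (-0.668) and chr14:52810351-52818984 (-0.676), and the third locus removed was chr1:86103882-86197215 (-0.679). Among the 32 samples without ST, the correlation of the 15 loci with TPM3 ranged from -0.35 to 0.37. Its median was 0.118, compared with 0.117 over all 9568 loci, and 7 of the 15 were negative. The TPM3 step used these 32 samples too and removed loci with low correlations, so the comparison with all loci is not independent of the rule. All these points share the libraries and the denominator of CPM.

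How many loci passed the rule depended on the total used to scale the counts. With TMM library sizes 29 loci passed, 10 of them among the 15. With DESeq2's median of ratios 25 passed, including 11 of the 15, and with the total over all loci only 6 passed, including 5. Loci 2, 4, 5 and 7 passed under all 4 scalings, and loci 8, 10, 11 and 12 only under the CPM over Ensembl loci. The TPM3 step was repeated under each scaling, so a locus could be lost at that step and still be highest in ST. The mean in ST was the highest of the 9 muscle means for 15 of 15 loci under every one of these scalings. Within animals, ST was highest in 57 of the 60 pairs of locus and animal with TMM library sizes or the median of ratios. With the total over all loci it was highest in only 37 of the 60. The mean difference in log2(CPM + 1) between ST and the other 8 muscles ranged over the loci from 0.38 to 2.54 as selected, and from 0.22 to 2.11 with the total over all loci.

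The 15 loci were then compared among the 8 other muscles, to describe what they shared besides their level in ST. The rule did not order these 8 muscles, but it kept their values below ST in each animal, and the TPM3 step used all their samples, so this comparison is not independent of the rule. ST was left out of the fit, all 15 loci were among the 12373 tested, and p-values were adjusted over all of them. The 12373 had a count filter of their own and include loci without an Ensembl identifier, unlike the 9568 loci that the rule ranked. Shares of all loci tested, here and below, refer to this mixed set, and none is given for Ensembl loci alone. In the joint test of the 8 muscles, 7 of the 15 loci differed (loci 1, 2, 3, 4, 9, 10 and 15), or 46.7%, where 15.8% of all loci tested did so at an FDR of at most 0.05. Without the adjustment, 10 of the 15 (66.7%) had p under 0.05, compared with 30.6% of all loci tested. The FDR in edgeR's quasi-likelihood fit, adjusted by Benjamini and Hochberg's method, was lowest for locus 3 (1.1e-09), followed by locus 4 (0.00545), locus 9 (0.00581) and locus 15 (0.0114). Mean counts, which set the precision of such a test, were higher in these loci than in others, with a median of 58.4 compared with 25.4 over the 9568 loci, and their part in this share was not tested. The joint count fell to 1, locus 3, in the fit without the animal block. That fit called 616 of all 12373 loci, compared with 1958 with the block. Without animals 2, 3 and 4 the joint count of the 15 loci was 4, 2 and 2. Calls over all loci were then 1435 of 12058, 674 of 12603 and 766 of 12199.

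RF had the highest median of the 8 muscles over the 15 loci, although its mean was the highest of the 8 in only 6 of them, with GB highest in 5, PM in 3 and SS in 1. Against the mean of the other 7, the estimate for RF was above 0 in 15 of 15 loci, compared with 50.6% of all loci tested, and the median log2 fold change (log2FC) was 0.39, compared with 0.00 over all loci. In this contrast 4 loci were higher in RF, where 0.905% of all loci were so. In locus 3 the log2FC was 2.30 ± 0.22, with an FDR of 2.0e-09 in the same edgeR fit. It was 1.10 ± 0.14 in locus 4 (edgeR FDR 0.0113), 0.70 ± 0.13 in locus 9 (edgeR FDR 0.00495) and 0.40 ± 0.05 in locus 10 (edgeR FDR 0.0469), each higher in 4 of 4 animals. The ± values and the counts of animals come from the 4 within-animal differences in log2(CPM + 1). Each ± is the SE of those differences and not the error of the edgeR estimate. Only locus 3 was called in the fit without the animal block and in the fit without animal 2, where 0.275% and 0.639% of all loci were called higher in RF. The 2 loci 3 and 9 were called without animal 3 or animal 4, where 0.357% and 0.377% of all loci were. Within animals, in the values that the rule ranked and thus only as a description, RF followed ST in 16 of the 60 pairs, ahead of GB with 12, PM with 10, LL with 8, SS with 6, SM with 5, AD with 2 and GM with 1.

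In GM the loci lay on the other side. The estimate against the mean of the other 7 was below 0 in 14 of 15 loci, compared with 50.0% of all loci tested, with a median log2FC of -0.27. No locus was lower at an FDR of at most 0.05 in this contrast by edgeR's quasi-likelihood test (0.0242% of all loci were) or by DESeq2, and 8 of the 15 (53.3%) were lower at an unadjusted p under 0.05, compared with 4.04% of all loci. The count below 0 was 12 when CPM over Ensembl loci were compared directly and 9 with the total over all loci, where GM was below the mean in 23.4% of all 9568 loci.

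Locus 3 gave the other calls among the 15 loci. It was higher in SS, with a log2FC of 1.73 ± 0.20 (edgeR FDR 2.4e-06), where 4.24% of all loci were called higher. It was lower in SM, by -2.14 ± 0.07 (edgeR FDR 0.000638), where 3.98% were called lower, and in LL, by -1.83 ± 0.46 (edgeR FDR 0.00146), where 1.18% were. Each of these had the same sign in 4 of 4 animals, with ± and sign again taken from log2(CPM + 1). The SM samples of locus 3 held only 3 to 6 counts. The call in LL was lost without animal 1, where the log2FC was -1.57 and the edgeR FDR 0.0533. RF and SS, where locus 3 was high, had unequal means of TPM3, with 182 ± 100 CPM in RF and 549 ± 187 CPM in SS. In the remaining 12 combinations of muscle and direction none of the 15 loci was called by edgeR, and DESeq2 made 1 call, for locus 15 in AD. Of 180 unadjusted p-values in edgeR's quasi-likelihood test, 22 were under 0.05 (12.2%, compared with 6.78% over all loci). These 12 combinations include lower in GM, already given above, which holds 8 of the 22.

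**Figure D4:**
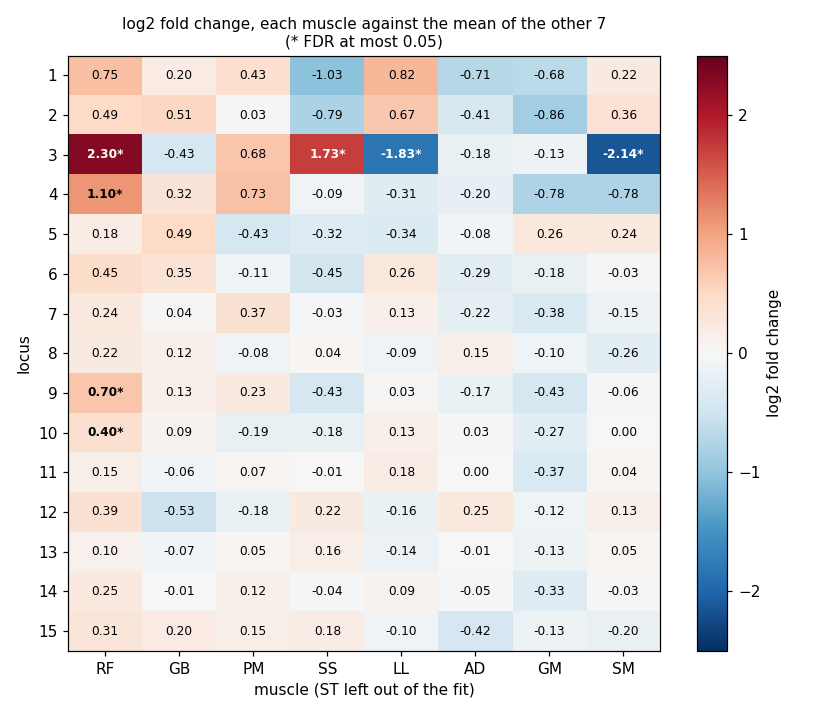
Log2 fold change of each of the 8 muscles other than ST (x axis) against the mean of the other 7, for the 15 loci (y axis), with red above and blue below 0 and an asterisk at an FDR of at most 0.05. The RF column is above 0 throughout, from 0.10 to 2.30, and the GM column is below 0 except for locus 5. Locus 3 holds 4 of the 7 asterisks.

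The 15 loci did not follow a single pattern among the 8 muscles. Over the 32 samples, centred within animal, the correlation between 2 of the loci had a median of 0.21 over 105 pairs, compared with 0.09 over all pairs of the 9568 loci, and 27 pairs were negative. Loci 2 and 6 were the most alike (0.75), with GB next to ST and SS lowest in both. Loci 2 and 12 were the least alike (-0.32), as GB was the next highest muscle after ST in the one and the lowest in the other. The lowest mean was in SS for 5 loci, in SM for 3, in GM for 3, in LL for 2, and in GB and AD for 1 each. The libraries and the CPM denominator are shared by all these points.

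The share of the variation between animals ranged widely over the 15 loci. In the 8 muscles, animals held a median of 17.5% of the sum of squares of log2 CPM in the 15 loci, compared with 16.4% over all loci tested, and muscles held 37.0%, compared with 27.6%. Locus 6 had the highest share between animals, 62.7%, and only 15.8% between muscles. Animal 3 had the highest value of locus 6 in 9 of 9 muscles, from 51.2 CPM in SS to 166 CPM in ST. In locus 15 the share was 52.4%, and animal 3 was highest in 7 of 9 muscles. In locus 9 it was 40.0%, with animal 2 highest in 5 muscles. At the other end, animals held 4.27% in locus 7 and 4.74% in locus 10. The libraries were spread over several sequencing lanes, and the lane of each sample is not known here. The part of lanes in the shares between animals was not tested.

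**Figure D5:**
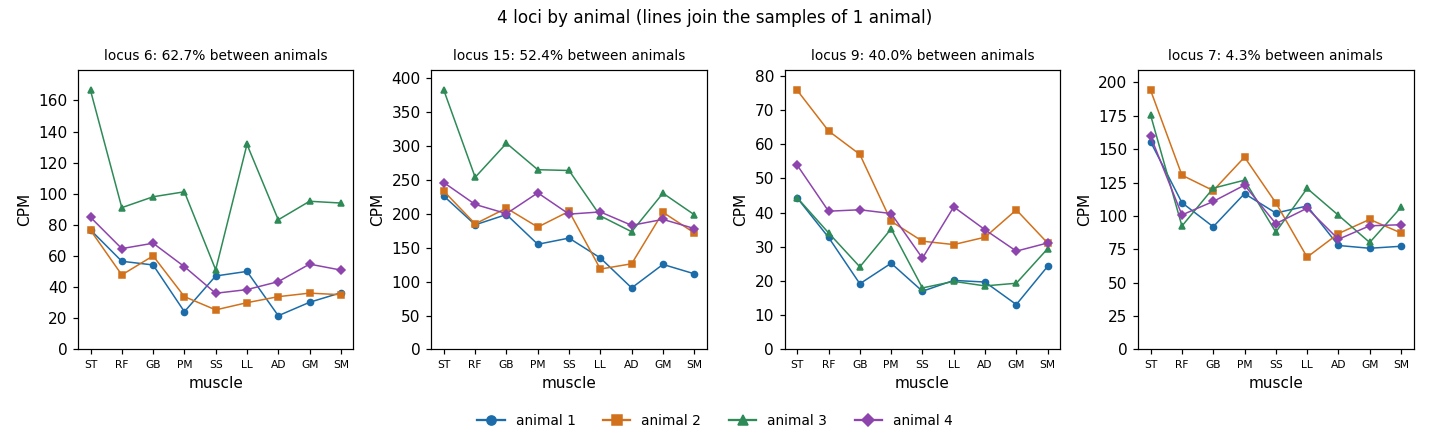
CPM (y axis, from 0) by muscle (x axis) of loci 6, 15, 9 and 7, with a line for each of the 4 animals and, above each panel, the percent of the sum of squares between animals in the 8 muscles other than ST. In locus 6 the line of animal 3 lies above the others in all 9 muscles, and in locus 7 the 4 lines run close together.

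The 15 loci lay on 9 chromosomes. Chromosome 1 held 5 of them (33.3%), compared with 9.80% of the 9568 loci, and the closest pair on any chromosome, loci 14 and 11, was 7.52 Mb apart. Their spans ran from 1.48 kb to 437 kb with a median of 47.0 kb, compared with 31.0 kb over the 9568 loci. Another locus had the same coordinates in 6 of the 15, and 2 joined a pair of Ensembl genes (loci 12 and 14). For these the counts cannot be assigned to 1 gene. None of the 15 loci was among those paired with a gene of the fast fibre, slow fibre, glycogen, or HOX and limb patterning lists. In that order, 1 of 22, 7 of 18, 1 of 18 and 3 of 57 genes of these lists could be paired.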

How the data were processed

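RNA-Seq counts of 36 samples were used. Per the labels and the study's methods, the authors aligned 100-base paired reads to Oar_v3.1 with TopHat2 2.0.13, assembled transcripts with Cufflinks 2.2.1 together with the Ensembl annotation, and counted reads per locus with HTSeq. Whether counting used strand is not given in the sources used here. The deposited values are whole-number counts, not normalized, for 31136 loci, each used once. Starts, which count from 0 in the files, are given from 1.

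The 15 loci, the gene lists and the tests were chosen with earlier results of these data known. CPM used the total over Ensembl loci. Tests used edgeR 4.0.16 in R 4.3.3 on the 32 samples without ST, after filterByExpr by muscle and TMM normalization, with muscle and animal in a quasi-likelihood fit, p-values adjusted by the Benjamini-Hochberg procedure and an FDR of at most 0.05 over 12373 loci. Loci with and without an Ensembl identifier were tested together. The common biological coefficient of variation was 0.191. Pairing comes from the animal numbers, since every animal gave all muscles. Deviations from the muscle means correlated by 0.245 on average in the 112 pairs of samples from 1 animal (-0.0231 to 0.431) and by -0.0805 in the 336 other pairs. Centring on the muscle means ties the second value to the first, so it is not a separate observation. Shares of sums of squares were taken on log2 CPM (prior count 2).

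The precision of each value follows from its own counts. A count of 0 allows up to 3 counts, or 1.60 to 3.31 CPM, for counting error only. The joint test and the SM contrast were tried on simulated counts with changes in SM only and no animal effect. That simulation did not check the other contrasts or the animal block. The rule for named genes asked for symbols in a given table, which no locus had, so all 15 are described by position, and the order and the emphasis were set after the values were seen. Names were set beside loci only by the coordinates in the study's tables. Alternatives were the likelihood ratio test, no animal block, DESeq2 1.42.0, other size factors, filters and thresholds, each animal left out, other scalings, count minimums and TPM3 limits for the rule, and a prior count of 0.5.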

Additional observations from a re-analysis of the deposited data

Results flagged for a closer look

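In 2 of the 15 loci the ST sample of animal 3 stood far from the other ST samples. In locus 6 the ST values were 76.8, 76.6, 166 and 84.9 CPM in animals 1 to 4, and the gap from animal 3 to the nearest other animal was 0.907 of the whole range. In locus 15 they were 226, 233, 382 and 246 CPM, and the gap was 0.872 of the range. The counts behind the high values were 259 and 594. Both gaps are past the limit that Dixon's test sets for 4 samples, which flags about 1 in 20 groups of this size by chance. The rule ranked these ST values, so the flags are a description and not a test of the loci. Animal 3 was also highest in RF, GB, PM, SS, GM and SM in both loci, so these values were not confined to the ST library.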

How the results depend on the processing

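The number of loci that passed the rule was 29 with TMM library sizes, 6 with the total over all loci, 25 with the median of ratios, and 32 to 40 without 1 animal, when fewer conditions apply. It remained within 1.5 times of 15 with a mean count of at least 10 (15) or 20 (12), without the TPM3 step (18) and with a TPM3 limit of -0.5 (10). In the fit without the replicate block, 616 of all loci and 1 of the 15 were called in the joint test, and 1064 and 4 calls were made over the 8 contrasts, compared with 1958, 7, 2845 and 7. Without a filter, the contrasts gave 4648 calls and 12 among the 15 loci. With at least 10 counts in every sample, which kept 10 of the 15 loci, the joint test called 1303 and 4 and the contrasts 1836 and 3. At an FDR of 0.01, with an absolute log2FC above 1 for contrasts, the counts were 872, 3, 451 and 4. Without 1 animal, they were 674 to 1435 and 2 to 6 in the joint test, and 1130 to 2496 and 5 to 7 in the contrasts. The likelihood ratio test, DESeq2, RLE size factors and all 36 samples kept all 4 counts within 1.5 times. Neither the 7 contrasts called for single loci nor the differences between ST and the other muscles changed sign under the alternatives run. Of 175 values of the joint FDR of single loci under the alternatives, 28 lost and 9 gained the call, and 17 of 79 calls in single contrasts were lost, 8 of them for locus 10 in RF. Among the ST differences of single loci, 14 of 105 moved by more than the SD between animals. The counts of loci above the mean in RF and below it in GM under each scaling and fit were added after the data were seen. They were 14 or 15 in RF and 9 to 14 in GM, apart from the filter that kept 10 loci, where all 10 had these directions. The causes of these changes were not tested. Depth limits loci 1 and 4 most, with 19 to 39 counts in the ST samples.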
